A study of Mus musculus with 3 samples.

Results

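The genes followed here are 10 candidate markers of skeletal progenitor cells: Pdgfra, Pdgfrb, Thy1, Lepr, Cxcl12, Cd34, Ly6a, Procr, Dpp4 and Pi16. They were taken by symbol from the 32285 genes of each count matrix, and each symbol matched 1 row. Single-cell RNA was read from mandibular condylar cartilage, the cartilage on the jaw side of the temporomandibular joint, of wild-type C57BL6 mice. The stages were embryonic day 16.5 (E16.5), when the upper joint cavity forms, the day of birth (P0) and 13 weeks of age (13w). Each stage was 1 library, made from the pooled condyles of 7 to 20 mice and from cells sorted as live by dye. No allele, transgene or treatment separated the groups, and they differed in age alone as far as the labels say.

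Stem and progenitor cells of the skeleton are usually isolated with antibodies to surface proteins, and most of these genes encode such proteins. Cxcl12 is the exception, since it encodes a secreted chemokine that is used to mark marrow stroma. None of the proteins belongs to progenitors alone: several are also carried by fibroblasts, by the cells around vessels, by endothelium or by blood cells. For that reason each gene was followed by stage, by the cartilage character of the cell and by cell class.

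Cells were called Col9a1-high when they held at least 3 UMIs (counted RNA molecules) of Col9a1, a cartilage collagen gene, per 10000 UMIs. Cells with a UMI of Pecam1, an endothelial adhesion gene, were set apart. After filtering, 4562 E16.5 cells, 3999 P0 cells and 8028 adult cells were left, with median depths of 17401.5, 17954 and 11010 UMIs. Among Pecam1-negative cells, 973 of 4318 were Col9a1-high at E16.5, 1643 of 3791 at P0 and 1603 of 7898 at 13w. Cells near the cut, from 1.5 to under 3 UMIs per 10000, numbered 271, 207 and 464, and from 3 to under 6 they numbered 235, 128 and 422. The Col9a1-high cells were also the deeper ones, with median depths of 40039, 35944 and 23612 UMIs, against 14941, 11764 and 9538 in the remaining Pecam1-negative cells. The 7 genes of the chondrocyte marker list other than Col9a1 summed to 16840, 29310 and 50994 UMIs per 1000000 in Col9a1-high cells, against 758, 1253 and 5512 in the remaining cells. Pairs of libraries shared 10 to 15 cell barcodes.

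Levels are given as CPM, the UMIs of a gene per 1000000 UMIs of the cells named. A gene was measured in a comparison with at least 1 CPM in the higher group. It was called higher or lower when the ratio was at least 2-fold and its exact 95% interval left out 1. With 1 library per stage there is no replicate check and no test, and every interval covers counting error only. "Rose" and "fell" below mean called in this sense.

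Ly6a, which encodes the mouse surface antigen Sca-1 used to sort stem cells and fibroblasts, came on late. Its level in Pecam1-negative cells was 0.168 CPM at E16.5 (interval 0.0963 to 0.274, 16 UMIs), 1.72 CPM at P0 (1.45 to 2.01) and 38.1 CPM at 13w (36.9 to 39.2). None of the 3 intervals overlapped. The level rose 10.2-fold at P0 over E16.5 (log2 ratio 3.35, interval 2.60 to 4.19) and another 22.2-fold at 13w over P0 (log2 ratio 4.47, interval 4.24 to 4.72). At E16.5 it stood last of the 10 genes in level, with an interval that overlapped that of Dpp4, and at 13w it was second to Pdgfrb. After every cell had been thinned to 3000 UMIs, 0.0241% of E16.5 cells, 0.491% of P0 cells and 10.6% of 13w cells held a Ly6a UMI, against 0.324%, 3.06% and 21.6% without thinning. Blood-marker cells at 13w, with a median depth of 7848 UMIs against 11003.5 in all Pecam1-negative cells, held a Ly6a UMI in 4.78% after thinning. Of the 13w Ly6a UMIs, 88.4% lay in the remaining cells outside the blood, vessel-wall, muscle and Schwann classes, each of which needs UMIs of at least 3 of its 6 markers. These remaining cells were 74.3% of the 13w library's cells. Ly6a had 59.4 CPM in them and 29.7 CPM in blood-marker cells.

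Lepr, the leptin receptor that marks stromal cells of adult marrow, ran the other way. Its level was 10.5 CPM at E16.5 (9.83 to 11.1), 6.54 CPM at P0 (6.01 to 7.09) and 1.05 CPM at 13w (0.871 to 1.26). The P0 level was 1.60-fold below that at E16.5 and was not called, while the 13w level fell 6.20-fold against P0 (log2 ratio -2.63, interval -2.93 to -2.34). Cxcl12 fell at both steps, with 40.0 CPM at E16.5 (38.8 to 41.3), 5.06 CPM at P0 (4.60 to 5.55) and 1.85 CPM at 13w (1.60 to 2.12). Its fall was 7.91-fold at P0 over E16.5 and 2.74-fold at 13w over P0. Cells with a Cxcl12 UMI made up 11.5% of thinned Pecam1-negative cells at E16.5, 2.29% at birth and 0.593% at 13 weeks, and no thinned blood-marker cell held one at any stage. For the 314 blood-marker cells at 13w that allows a share of up to 0.955% with a UMI at 3000 UMIs per cell, which bounds detection and not expression. At E16.5 a Cxcl12-positive cell held 3.84 UMIs on average and the top 10% of cells held 81.4% of its UMIs. Thy1 and Lepr had similar shares in the top 10%, at 82.4% and 79.9%, with 1.69 and 1.57 UMIs per positive cell, and Pdgfra had 45% with 2.40 UMIs.

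Cd34, a sialomucin of endothelium, blood progenitors and many fibroblasts, stayed high through birth and fell later. It stood at 40.2 CPM at E16.5 (39.0 to 41.5), 28.8 CPM at P0 (27.7 to 29.9) and 12.6 CPM at 13w (11.9 to 13.2), a fall of 2.29-fold at 13w over P0. Among the remaining Pecam1-negative cells the 13w level was 3.52-fold below P0.

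The 2 platelet-derived growth factor receptors were not called at either step. Pdgfra, the receptor that marks mesenchymal progenitors and fibroblasts, had 55.6 CPM at E16.5 (54.1 to 57.1), 36.2 CPM at P0 (35.0 to 37.5) and 35.7 CPM at 13w (34.6 to 36.8), the highest member at the first 2 stages. Pdgfrb, the receptor best known from pericytes, had 25.2 CPM at E16.5 (24.2 to 26.2), 27.8 CPM at P0 (26.7 to 28.9) and 51.6 CPM at 13w (50.2 to 52.9). Pdgfra was thus the higher of the pair at E16.5 and P0 and the lower at 13w, with intervals apart at each stage. Thy1, which encodes the glycoprotein CD90, had 10.9 CPM at E16.5, 21.4 CPM at P0 and 21.4 CPM at 13w. Its 1.96-fold higher level at P0 over E16.5 lay just short of the 2-fold limit, and so did the 1.86-fold higher level of Pdgfrb at 13w over P0. Trimmed-mean (TMM) scaling carried both past it, with log2 ratios of 1.15 for Thy1 and 1.06 for Pdgfrb.

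Procr, Pi16 and Dpp4 were scarce at all stages. Procr, the protein C receptor of endothelium, had 0.832 CPM at E16.5, 2.17 CPM at P0 and 1.60 CPM at 13w, and rose 2.61-fold at P0 over E16.5 (log2 ratio 1.38, interval 1.0 to 1.78). Pi16, a peptidase inhibitor gene, had 1.83, 1.48 and 1.77 CPM at E16.5, P0 and 13w, with overlapping intervals. Dpp4, a surface peptidase that trims chemokines including Cxcl12, had 0.242, 0.170 and 0.90 CPM and stayed under the 1 CPM minimum. In mouse tissues Dpp4 and Pi16 are known together as markers of a shared fibroblast reservoir. Neither reached 1% of thinned Pecam1-negative cells at any stage.

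**Figure D1:**
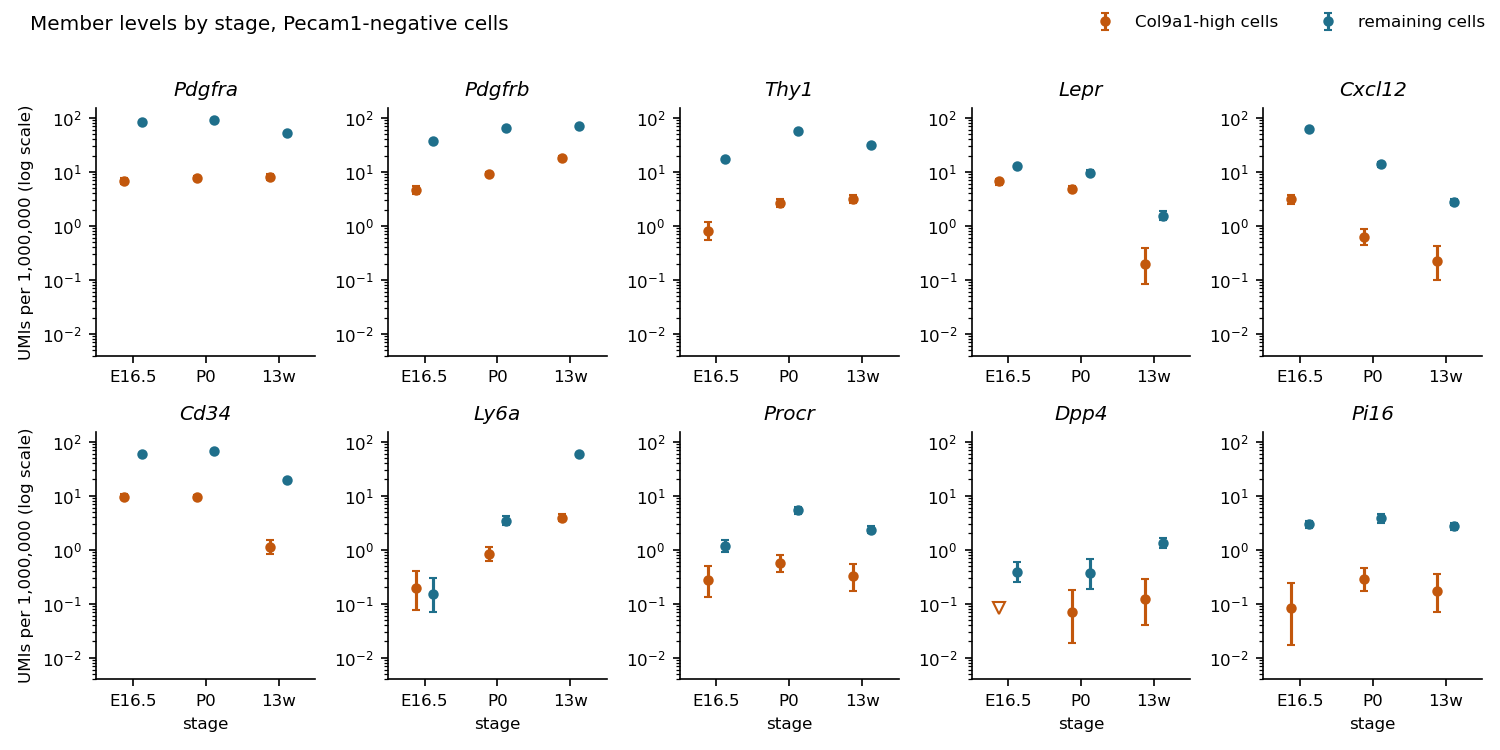
UMIs per 1000000 (log scale) of each gene at E16.5, P0 and 13w in Col9a1-high cells (orange, left) and in the remaining Pecam1-negative cells (blue, right), with exact 95% Poisson intervals, 1 pooled library per stage. The open triangle marks the limit that 3 UMIs set where no UMI was counted; Ly6a climbs to 57.9 CPM and Cxcl12 drops to 2.79 CPM at 13w in the remaining cells.

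In all Pecam1-negative cells, 3 of the 9 measured members were called at P0 over E16.5, Ly6a and Procr higher and Cxcl12 lower, beside 20.0% of 13338 genes (6.46% higher and 13.5% lower). At 13w over P0 it was 4 of 9, Ly6a higher and Lepr, Cxcl12 and Cd34 lower, beside 23.8% of all measured genes (12.2% higher and 11.7% lower). These shares of members were above the background, but over 9 genes that is a small count. The median log2 ratio of the measured members was -0.31 and -0.02 at the 2 steps, beside -0.17 and -0.10 for all measured genes. Of all genes called, 32.4% were higher at P0 over E16.5 and 51% at 13w over P0, and TMM scaling moved these to 47.9% and 61.7%. The split between higher and lower over all genes therefore depends on the scaling.

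The cell mix differed between the libraries, since Col9a1-high cells were 22.5% of Pecam1-negative cells at E16.5, 43.3% at birth and 20.3% at 13 weeks. The stages were therefore also compared within each of the 2 groups of cells. In the remaining cells Pdgfra held 86.0 CPM at E16.5, 92.5 CPM at P0 and 51.7 CPM at 13w, so its lower level at P0 in the mixture was not present there. Thy1 held 17.2, 58.4 and 32.0 CPM, a rise of 3.40-fold at P0 over E16.5 (log2 ratio 1.76, interval 1.65 to 1.88). Cd34 held 59.3, 67.5 and 19.2 CPM, and Pdgfrb 38.0, 64.8 and 70.7 CPM. Ly6a held 0.154, 3.45 and 57.9 CPM at the 3 stages in turn. Procr rose 4.54-fold at P0 over E16.5 and fell 2.28-fold at 13w over P0, with 1.18, 5.35 and 2.35 CPM. Of the measured members, 4 of 9 were called at P0 over E16.5 (18.5% of all measured genes, 6.31% higher and 12.2% lower), with Thy1, Ly6a and Procr higher and Cxcl12 lower. At 13w over P0 it was 6 of 10 (25.7% of all measured genes, 13.7% higher and 12.0% lower), with Ly6a and Dpp4 higher and Lepr, Cxcl12, Cd34 and Procr lower. TMM scaling moved the share of higher genes among all called at P0 over E16.5 to 48.0%, from 34.1% with library totals.

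The Dpp4 and Procr calls at 13w did not hold without the cells of the blood, vessel-wall, muscle and Schwann marker classes. Without them the log2 ratio at 13w over P0 in the remaining cells was 0.50 for Dpp4, against 1.86 with them, and -0.82 for Procr, against -1.19. Pi16 became lower, at -1.93 against -0.50, and over all Pecam1-negative cells at -1.20 against 0.26. In the remaining cells the 6 blood markers summed to 99.2, 14.6 and 166 CPM at the 3 stages in turn.

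In Col9a1-high cells the levels were lower throughout and 6 members could be measured. At P0 over E16.5, 2 of them were called (15.5% of all measured genes, 7.72% higher and 7.83% lower), Thy1 higher with 2.65 CPM at birth against 0.824 CPM at E16.5, and Cxcl12 lower with 0.633 against 3.13 CPM. The Thy1 call was lost with thinned cells, at a log2 ratio of 1.45. At 13w over P0, 4 were called (25.1% of all measured genes, 9.65% higher and 15.4% lower). Ly6a was higher, at 3.93 CPM against 0.838 CPM. Pdgfrb stood at 18.5 CPM at 13w against 9.02 CPM at P0, 2.05-fold higher, which fell short of the limit at a Col9a1 cut of 1 or 10, without the highest doublet scores or with thinned cells, at log2 ratios of 0.76 to 0.96. Lepr fell 25.1-fold, with 0.196 CPM at 13w (8 UMIs) against 4.93 CPM at P0, and Cd34 fell 8.19-fold, with 1.13 against 9.24 CPM. In the remaining cells the same step was 6.27-fold for Lepr and 3.52-fold for Cd34, and the intervals of the log2 ratios in the 2 groups of cells did not overlap for either gene (Lepr -5.88 to -3.65 against -2.98 to -2.32, Cd34 -3.50 to -2.60 against -1.92 to -1.71). All-gene medians at this step were -0.26 and -0.05, and of the genes called in Col9a1-high cells 38.5% were higher, or 57.2% with TMM scaling.

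Nearly all members were scarcer in the cartilage-rich cells. At 13w all 10 members were lower in Col9a1-high cells (22.3% of all measured genes were called, 3.85% higher and 18.5% lower). At P0 8 of 9 measured members were lower (31.5% of genes, 11.0% higher and 20.4% lower) and at E16.5 7 of 8 (33.0% of genes, 8.94% higher and 24.1% lower), and none was higher at any stage. The Dpp4 call at 13w and the Procr call at E16.5 were lost without the marker-class cells, at log2 ratios of -2.87 and -2.05, since both levels were then under 1 CPM. The Procr call at 13w was lost with thinned cells, at -1.20 against -2.88. The median log2 ratio of measured members was -3.35, -3.24 and -3.39 at E16.5, P0 and 13w, beside -0.29, -0.18 and -0.36 for all measured genes. Cxcl12 was 20.1-fold lower in Col9a1-high cells at E16.5, 21.8-fold at P0 and 12.6-fold at 13w, and Thy1 20.9-fold, 22.0-fold and 9.96-fold. Pdgfra was 12.6-fold, 11.9-fold and 6.39-fold lower, and Pdgfrb, the least depleted of the receptors for growth factors, 8.18-fold, 7.19-fold and 3.82-fold. Of all genes called, 27.1%, 35.1% and 17.3% were higher in Col9a1-high cells at the 3 stages, and 42.5%, 49.1% and 35.4% with TMM scaling. Ly6a at E16.5 held 0.192 CPM in Col9a1-high and 0.154 CPM in the remaining cells, too few UMIs to measure.

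Lepr was the member that did not follow at the early stages. At E16.5 it had 6.68 CPM in Col9a1-high cells (5.86 to 7.57), against 12.8 CPM in the remaining cells (11.9 to 13.8), a 1.92-fold lower level. At P0 it had 4.93 CPM against 9.71 CPM, 1.97-fold lower, and at 13w 0.196 CPM against 1.55 CPM, 7.90-fold lower. The early ratios lay close to the 2-fold limit and passed it under some settings, from -1.41 to -1.01 on the log2 scale, but were smaller than those of every other measured member. Over cells graded by Col9a1, Lepr was not monotonic. At E16.5 it had 17.6 CPM in cells with no Col9a1 UMI, 7.06 CPM above 0 and under 3 Col9a1 UMIs per 10000, 3.96 CPM from 3 to 10 (2.98 to 5.15), 8.34 CPM from 10 to 30 (7.16 to 9.65) and 8.69 CPM in the 39 cells at 30 or more. At P0 the same grades had 12, 7.59, 3.73, 4.52 and 9.50 CPM (the last 7.22 to 12.3). Cells rich in Col9a1 thus held more Lepr per UMI than cells just past the cut at both stages, with intervals apart between the lowest and a higher grade. At 13w Lepr declined over the grades, with 1.87, 0.877, 0.269, 0.142 and 0 CPM.

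Cd34 showed the same upturn, with 6.48 CPM from 3 to 10 and 11.4 CPM from 10 to 30 at E16.5, and with 6.59 CPM from 3 to 10 and 15.4 CPM at 30 or more at P0. Pdgfra did not, with 10.4, 4.70 and 2.90 CPM over the 3 highest grades at E16.5 and 17.5, 6.32 and 5.41 CPM at P0. The 6 Schwann markers summed to 41.5 CPM in Col9a1-high cells at E16.5 against 6.68 CPM in the remaining cells, to 18.1 against 2.17 CPM at P0 and to 2.94 against 1.64 CPM at 13w, and their part in the upturn was not tested. Lepr in thinned blood-marker cells was found in 1 of 124 cells at E16.5 and 0 of 15 at P0, against 23 of 950 and 37 of 1568 Col9a1-high cells. The blood-marker cells were too few to tell these shares apart.

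**Figure D2:**
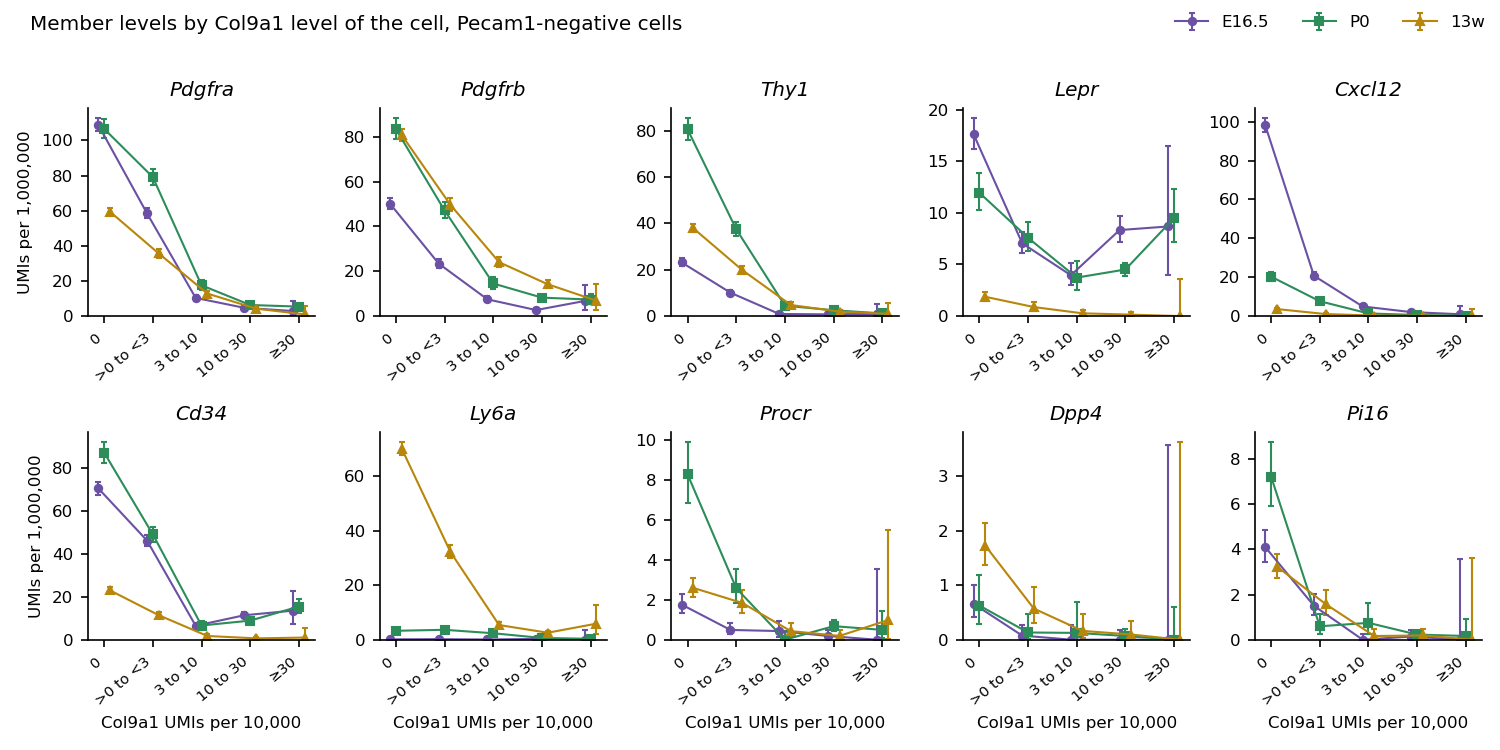
UMIs per 1000000 of each gene in Pecam1-negative cells graded by Col9a1 UMIs per 10000, at E16.5 (purple circles), P0 (green squares) and 13w (gold triangles), with exact 95% Poisson intervals; each panel has its own vertical scale. Most genes are lower in the grades from 3 up than in those under 3, while Lepr and Cd34 turn up again in Col9a1-richer cells at E16.5 and P0. At 13w Lepr does not. Pdgfrb at E16.5 (7 UMIs) and Ly6a at 13w (6 UMIs) are also higher at 30 or more than from 10 to 30, with overlapping intervals. So are Thy1 at E16.5 and Cd34 and Procr at 13w, each on 1 UMI.

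For Pi16, Dpp4, Ly6a, Procr and Cxcl12, a small class of cells held a large share of the UMIs. Blood-marker cells, with UMIs of at least 3 of 6 blood genes, were 351 cells or 4.37% of the 13w library, yet held 61.8% of its Pi16 UMIs and 51.7% of its Dpp4 UMIs. Pi16 stood at 29.0 CPM there and Dpp4 at 13.8 CPM, against 1.03 and 0.543 CPM in the remaining cells outside all marker classes. At E16.5, 135 blood-marker cells held 19.2% of the Pi16 UMIs, at 16.6 CPM. After thinning, 12.7% of blood-marker cells at 13w and 10.5% at E16.5 held a Pi16 UMI. Within the 13w blood-marker cells the genes most correlated with Pi16 were Lrg1, Hcar2 and Csf3r, the receptor gene for granulocyte colony-stimulating factor, at r = 0.39, 0.38 and 0.37 over 314 cells. For Dpp4 they were Apobec3, Ifi203 and Mndal, at r = 0.41, 0.33 and 0.32. These lists for blood-marker cells were drawn after the values had been seen, and 40 and 13 cells carried the genes.

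**Figure D3:**
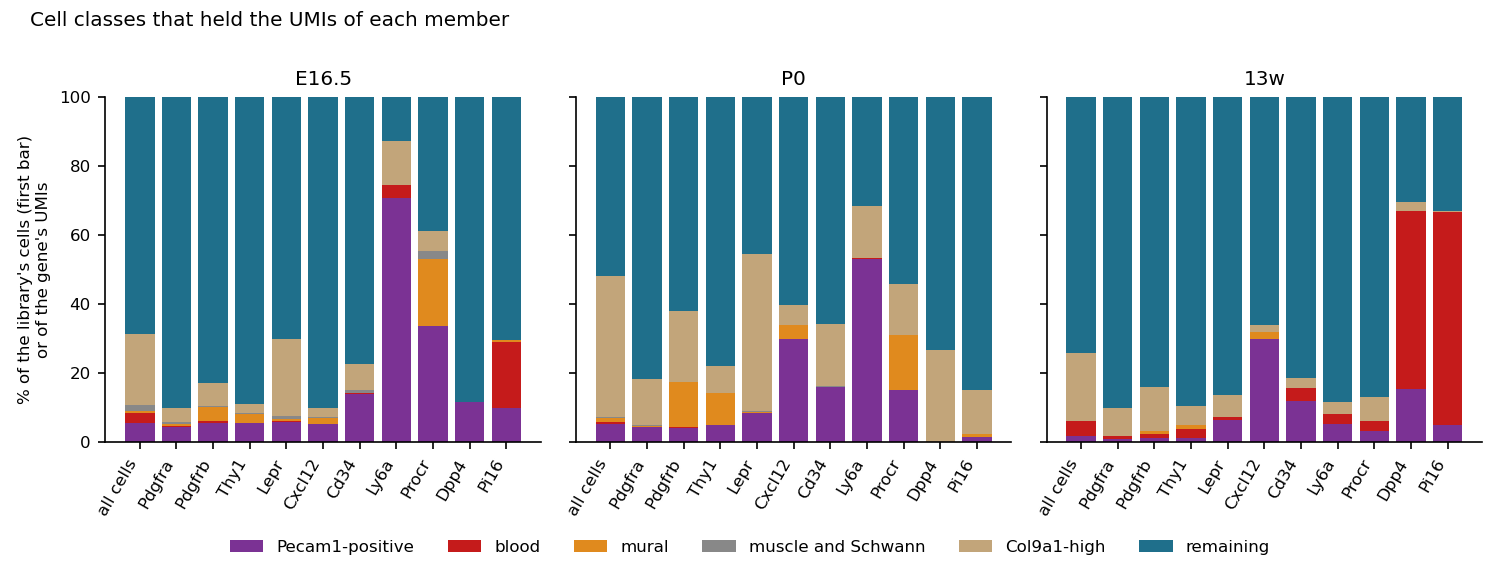
Share of each library's cells (first bar) and of each gene's UMIs (other bars), in percent, by cell class at E16.5, P0 and 13w. Blood-marker cells (red) are 4.37% of cells at 13w but hold 51.7% of Dpp4 and 61.8% of Pi16 UMIs, and Pecam1-positive cells (purple) hold 70.9% of Ly6a at E16.5.

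Pecam1-positive cells numbered 244, 208 and 130, or 5.35%, 5.2% and 1.62% of each library. They held 70.9% of all Ly6a UMIs at E16.5, 53.0% at birth and 5.07% at 13 weeks, and for Procr 33.6%, 15.1% and 3.26%. For Cxcl12 the order was different, with 5.16% at E16.5, 29.9% at birth and 29.8% at 13 weeks. Not all of these cells were endothelial by other markers: 52, 38 and 27 of them held UMIs of at least 3 of 6 further endothelial genes, a split added after the data had been seen. In these, Ly6a had 48.9 CPM at E16.5, 236 CPM at P0 and 964 CPM at 13w, against 0.415, 1.32 and 21.7 CPM in the other Pecam1-positive cells. Cd34 had 564, 561 and 684 CPM and was found in 50 of 52, 38 of 38 and 22 of 27 cells. Cxcl12 had 130, 262 and 451 CPM, Procr 50.2, 40.5 and 25.9 CPM, and Lepr 15.9, 34.7 and 31.1 CPM. Pdgfra, Pdgfrb and Dpp4 stayed at or under 7.23 CPM in them. Single cells weighed heavily on some of these levels: 1 cell held 95 of the 98 Cxcl12 UMIs at E16.5 and 1 held 112 of 181 at P0. Without the cell with the most Cxcl12 at each stage the Cxcl12 levels were 4.05, 103 and 380 CPM. For Cd34, 1 cell held 55 of the 132 UMIs at 13w. Without its top cell at each stage Cd34 had 556, 524 and 459 CPM, lowest at 13w. Lepr at 13w rested on 6 UMIs, 4 of them in 1 cell. Ly6a was higher at each later stage in these few cells too, with 41.4, 213 and 862 CPM without its top cell. The other Pecam1-positive cells carried 10657, 27027 and 12594 CPM of the chondrocyte list. That was more than in the remaining Pecam1-negative cells, which exclude Col9a1-high cells. It was less than in Col9a1-high cells, at 18233, 31256 and 52243 CPM. Of these other Pecam1-positive cells, 40 of 192, 100 of 170 and 17 of 103 passed the Col9a1 cut themselves. At least 3 blood markers were held by 21, 1 and 43 of them.

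Mural-marker cells, those of the vessel wall, were 25, 53 and 9 cells. Pdgfrb had 278, 501 and 716 CPM in them and Thy1 70.9, 275 and 461 CPM, the highest levels of either gene in any class. At P0 they held 13.1% of the Pdgfrb UMIs from 1.33% of cells. Procr had 62.7 CPM at E16.5, 53.8 CPM at P0 and no UMI in the 9 cells at 13w. Those 9 cells held 62884 UMIs in all, so the interval of that 0 ran up to 58.7 CPM, above the P0 level. Ly6a was at 0 in the mural-marker cells at all 3 stages, with intervals up to 10.1, 5.52 and 58.7 CPM. In the remaining cells outside all marker classes it had 0.127, 3.53 and 59.4 CPM, so these zeros do not show a lower level.

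Single cells were then compared for carrying more than 1 of the genes, after thinning to 3000 UMIs. Among Pecam1-negative cells, 27.4%, 23.6% and 27.2% at E16.5, P0 and 13w held exactly 1 of the 10 members, and 12.7%, 11.2% and 9.66% held exactly 2. In Col9a1-high cells 89.2%, 89.7% and 91.0% held none, against 46.7%, 40.8% and 52.6% of the remaining cells. Of the 45 pairs, 16, 14 and 17 had at least 5 cells expected from the single shares. Of these, 10 at each stage were found together more often than expected, with an exact binomial interval above 1. The median observed over expected was 1.57, 1.66 and 1.5. Within the remaining cells outside all marker classes, 16, 14 and 16 pairs had that many cells expected, 8, 3 and 10 of them had an interval above 1, and the medians were 1.30, 1.19 and 1.29. Of these, 7, 3 and 9 pairs were also above 1 in all Pecam1-negative cells.

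Pdgfra and Cxcl12 went together at every stage. In Pecam1-negative cells 181 cells held both at E16.5 (95 expected, ratio 1.91), 44 at P0 (13.4 expected, 3.27) and 19 at 13w (5.77 expected, 3.30), and within the remaining cells the ratios were 1.48, 2.10 and 2.78. Pdgfrb and Thy1 were found together at 2.24, 2.19 and 1.71 times expectation. Without mural, blood, muscle and Schwann marker cells and outside cartilage, these ratios were 1.75 (1.26 to 2.37), 1.22 (0.964 to 1.53) and 1.38 (1.18 to 1.60), so the P0 interval then held 1. Cxcl12 and Cd34 shared 96 cells at E16.5 (ratio 1.62) and 31 at P0 (3.10).

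Thy1 and Cxcl12 were found together less often than the single shares gave at E16.5. There, 9 cells held Thy1 and Cxcl12 where 21.6 were expected, a ratio of 0.416 (0.190 to 0.789), and it was 0.327 (0.150 to 0.621) in the remaining cells outside all marker classes. Of the Cxcl12-positive cells in that last group 1.97% held Thy1, against 6.75% of the Cxcl12-negative ones. At P0 the ratio was 0.80, with an interval that held 1, and at 13w the expected count was under 5. Pi16 and Pdgfrb were below expectation at 13w, at 3 cells against 8.88, but with the marker cells removed the ratio was 1.64.

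Lepr and Cxcl12, which mark 1 cell type in adult marrow, shared few cells here, though more than the single shares gave at E16.5. At E16.5, 31 cells held both, or 19.3% of Lepr-positive and 6.49% of Cxcl12-positive cells (ratio 1.67, 1.14 to 2.37), and 6 cells did at P0 and 3 at 13w. Pdgfra and Ly6a, whose proteins are used together to sort cells, shared 154 cells at 13w (ratio 1.5). That was 15.8% of Pdgfra-positive and 19.2% of Ly6a-positive cells, by RNA alone. Thy1 went with Ly6a more strongly at 13w, in 131 cells (ratio 2.13, 1.78 to 2.52), and so did Cd34, in 66 cells (ratio 2.05, 1.59 to 2.60). The ratios of this paragraph are over all Pecam1-negative cells. These include the Col9a1-high cells, of which 91.0% held no member at 13w. Over all pairs with 5 expected cells, the 13w median was 1.5 in this set. It was 1.29 in the remaining cells outside all marker classes.

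For the scarce genes no pair with Cd34 reached 5 expected cells in all Pecam1-negative cells, and the counts are given as they are. At 13w, 12 of 30 Procr-positive cells held Cd34 (1.21 expected) and 13 held Ly6a (3.17 expected). At P0, 11 of 21 Procr-positive cells held Cd34 (2.5 expected), and so did 12 of 18 Pi16-positive cells (2.14 expected). Outside the marker classes at 13w, 7 of the 9 Dpp4-positive cells held Ly6a and 5 held Cd34, and of the 10 Pi16-positive cells 7 held Pdgfra, 6 Cxcl12 and 5 Cd34. At E16.5, 1 of 12 Procr-positive cells (1.49 expected) and 5 of 39 Pi16-positive cells (4.85 expected) held Cd34. In blood-marker cells at 13w, none of the 40 Pi16-positive and none of the 13 Dpp4-positive cells held Cd34 or Ly6a after thinning. Expected counts were not worked out for blood-marker cells. With so few positive cells, these zeros do not show that the genes were kept apart there. The overlaps outside the marker classes at 13w rest on 10 Dpp4- or Pi16-positive cells or fewer.

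**Figure D4:**
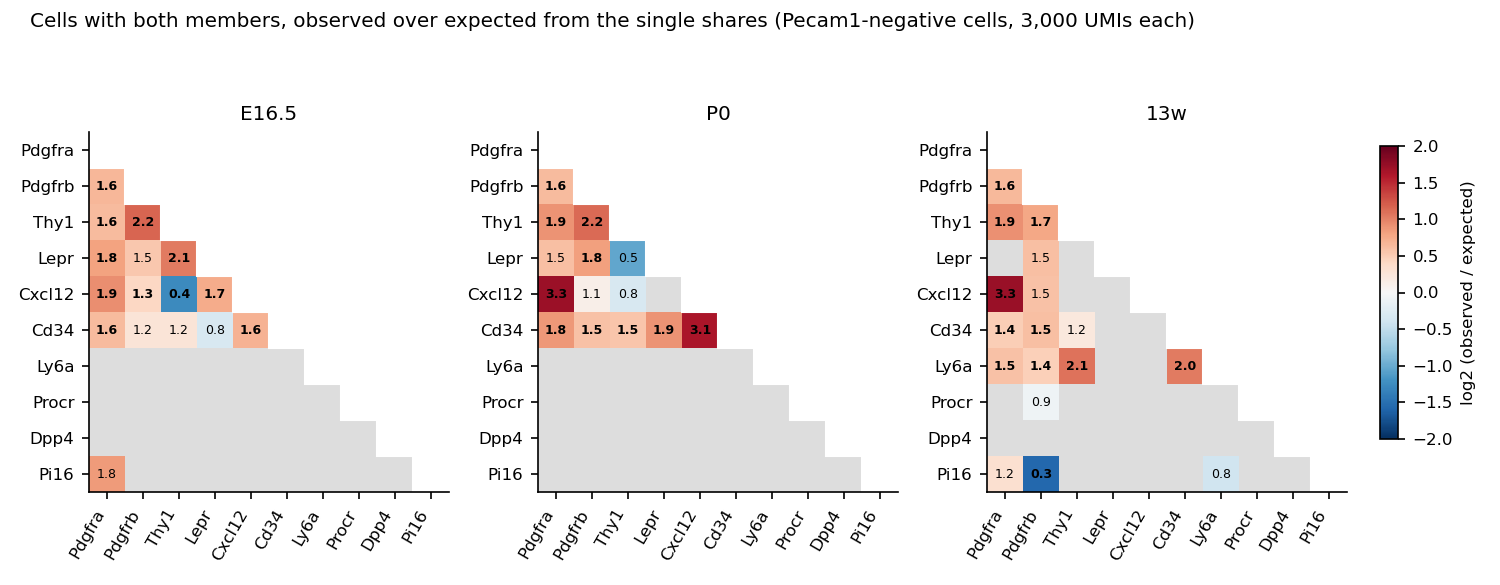
Observed over expected number of Pecam1-negative cells with UMIs of both genes, after thinning to 3000 UMIs per cell, at E16.5, P0 and 13w. Numbers are shown where at least 5 cells were expected, in bold where the interval leaves out 1, and grey squares had fewer; most shown pairs exceed 1, and Thy1 with Cxcl12 at E16.5 is 0.4.

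What else the positive cells carried was read from the gene lists in the remaining cells outside all marker classes. Of the 456 Cxcl12-positive cells at E16.5, 62.3% held Abi3bp, a joint-surface matrix gene, against 18.4% of Cxcl12-negative cells. Ebf1 was in 41.9% against 12.3%, Pthlh, which encodes parathyroid hormone-related protein, in 25.9% against 5.18%, and Ebf3 in 23.0% against 4.91%. Ebf1 and Ebf3 encode transcription factors of marrow stroma. At P0 the 73 Cxcl12-positive cells held Abi3bp in 47.9% against 7.52%, and at 13w the 42 such cells held Prg4, the gene of the joint lubricant lubricin, in 42.9% against 4.05%. Correlations were taken over single cells outside the marker classes, with Col9a1-high cells included. The genes closest to Cxcl12 were Igf1, Igfbp4 and Meg3 at E16.5 (r = 0.54, 0.42 and 0.41 over 3922 cells) and Igf1, Sfrp2 and Dlk1 at P0 (r = 0.41, 0.37 and 0.34 over 3589 cells). The correlation with Igf1 was the highest that any member reached at either stage, and all cells of a stage share 1 library.

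Lepr-positive cells at E16.5 held the chemokine gene Cxcl14 in 19.1% against 5.13% of Lepr-negative cells, and at P0 in 25.8% against 5.74%. The genes closest to Lepr were Aspn, Meox2 and Col8a1 at E16.5 and Fbn2, Aspn and Ogn at P0, at r = 0.23 or less. Pdgfra was closest to Meg3 at E16.5 and P0 (r = 0.34 and 0.31) and to Igfbp5 at 13w (r = 0.25). Pdgfrb and Thy1 both had Aspn among their closest at E16.5, at r = 0.15 and 0.16, as Lepr did at 0.23. At 13w both had Igfbp5 and Nbl1, and so did Pdgfra. Ly6a at 13w was closest to S100a4, Ly6c1 and Crip1 (r = 0.26, 0.25 and 0.23), and Cd34 at 13w to Sod3, Prg4 and Gsn (r = 0.24, 0.21 and 0.21).

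The 28 Procr-positive cells at 13w stood out for genes of the fibroblast reservoir list. Tnxb was in 42.9% of them (24.5 to 62.8) against 1.47% of Procr-negative cells, the complement regulator Cd55 in 42.9% against 2.01%, and Clec3b in 39.3% against 0.700%. The 291 Cd34-positive cells at 13w held Clec3b in 8.59% against 0.514% and Prg4 in 18.2% against 3.60%. At E16.5 the 26 Pi16-positive cells held Mfap5 in 30.8% (14.3 to 51.8) against 2.86% and Dpt, which encodes the matrix protein dermatopontin, in 34.6% against 6.79%. Among the abundant members, Top2a, a cell-cycle gene, was in 22.6% of Cxcl12-positive cells at E16.5 (18.8 to 26.7) against 29.7% of negative cells (28.0 to 31.5). At P0 it was in 21.9% of Cxcl12-positive cells (13.1 to 33.1) against 19.0% (17.3 to 20.8), with overlapping intervals. At 13w it was in 3.48% of Pdgfrb-positive cells against 7.73% of negative cells.

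Genes known to go with these markers moved as follows. Of the 12 fibroblast reservoir companions, 10 were measured at P0 over E16.5 in all Pecam1-negative cells, with 2 higher and 3 lower (6.46% and 13.5% of all measured genes), and 11 at 13w over P0, with 3 higher and 3 lower (12.2% and 11.7% of all measured genes). Ly6c1 had 21.4 CPM at 13w against 0.284 CPM at P0 and Dpt 216 against 6.44 CPM, while Cd248 had 2.21 against 24.8 CPM. In the Col9a1 contrast 8 of 11, 6 of 10 and 10 of 11 measured companions were lower in Col9a1-high cells at E16.5, P0 and 13w, beside 24.1%, 20.4% and 18.5% of all measured genes, and Anxa3 was higher at P0, with 25.5 CPM against 6.33 CPM. Within the groups the falls at P0 over E16.5 were absent. There, 2 rose and 0 fell of 11 in the remaining cells (6.31% and 12.2% of genes). In Col9a1-high cells 2 rose and 0 fell of 6 (7.72% and 7.83%). At 13w over P0 these counts were 3 and 2 of 11 (13.7% and 12.0%), and 3 and 3 of 8 (9.65% and 15.4%).

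Of the 12 marrow stroma companions, 6 of 10 measured fell at P0 over E16.5 and 2 rose, beside 13.5% and 6.46% of all measured genes. Ebf3 had 1.5 CPM at birth against 12.6 CPM at E16.5 and Hp 0.780 against 8.90 CPM, and Foxc1 rose, with 51.9 against 20.2 CPM. At 13w over P0, 3 of 10 rose and 3 fell, beside 12.2% and 11.7%. Kitl, the ligand of the blood stem cell receptor Kit, rose 6.98-fold, with 15.9 CPM at 13w against 2.27 CPM at P0, when Lepr and Cxcl12 fell. Foxc1 was 7.04-fold higher in Col9a1-high cells at E16.5, with 43.0 against 6.1 CPM, and most others were lower there. The stage counts of this list above are over all Pecam1-negative cells. At P0 over E16.5, 2 rose and 4 fell of 10 in the remaining cells (6.31% and 12.2% of genes). In Col9a1-high cells 1 rose and 3 fell of 9 (7.72% and 7.83%). At 13w over P0 these counts were 4 and 5 of 10 (13.7% and 12.0%), and 3 and 3 of 8 (9.65% and 15.4%).

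Among 16 other skeletal stem cell markers, all measured, 5 rose and 2 fell at P0 over E16.5 (6.46% and 13.5% of all measured genes) and 1 rose and 4 fell at 13w over P0 (12.2% and 11.7%). The 2 that fell at P0 and the 1 that rose at 13w are shares no larger than the background. Nt5e, which encodes CD73, had 230 CPM at birth against 56.0 CPM at E16.5, and Mcam, which encodes CD146, fell, with 0.441 CPM in the 13w library against 5.47 CPM in the P0 library. Unlike the 10 members, some of these were higher in Col9a1-high cells: Cd200 had 215 CPM against 14.3 CPM at E16.5, 301 against 38.6 CPM at P0 and 330 against 146 CPM at 13w. Pthlh was lower, with 1.07 against 24.2 CPM at E16.5. In all, 3 of 16, 3 of 16 and 2 of 14 measured genes of this list were higher in Col9a1-high cells at the 3 stages in turn, beside 8.94%, 11.0% and 3.85% of all measured genes. Lower were 9, 8 and 8, beside 24.1%, 20.4% and 18.5%. The stage counts of this list above are over all Pecam1-negative cells. At P0 over E16.5, 5 rose and 2 fell of 15 in the remaining cells (6.31% and 12.2% of genes). In Col9a1-high cells 4 rose and 0 fell of 16 (7.72% and 7.83%). At 13w over P0 these counts were 4 and 6 of 16 (13.7% and 12.0%), and 1 and 4 of 15 (9.65% and 15.4%).

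Of the 12 ligands and partners, 9 were measured at P0 over E16.5, with 1 higher and 4 lower (6.46% and 13.5% of all measured genes), and 8 at 13w over P0, with 4 higher and 1 lower (12.2% and 11.7%). The single genes are near the background. Pdgfa, a ligand of Pdgfra, had 98.5 CPM at birth against 41.8 CPM at E16.5, and 45.7 CPM at 13w. Pdgfc, another, had 22.7 CPM at 13w against 1.17 CPM at P0. Pdgfa stood at 126 CPM in Col9a1-high cells at P0, against 44.9 CPM in the remaining cells, the reverse of its receptor at that stage. Cxcr4, the receptor of Cxcl12, had 0.216 CPM at birth against 1.59 CPM at E16.5, and 2.03 CPM at 13w. Blood-marker cells held 48.8, 40.9 and 45.2 CPM of it at the 3 stages, against 0.526, 0.140 and 0.332 CPM in the remaining cells outside all marker classes, and they numbered 135, 17 and 351. Ackr3, the other receptor of Cxcl12, was higher in Col9a1-high cells, with 42.9 against 15.7 CPM at E16.5 and 51.9 against 24.8 CPM at P0, where Cxcl12 itself was lower. Over this list, 1 of 9, 2 of 7 and 0 of 8 measured genes were higher in Col9a1-high cells at the 3 stages in turn. All measured genes had 8.94%, 11.0% and 3.85%. Lower were 6, 4 and 5, beside 24.1%, 20.4% and 18.5%. Neither Pdgfa nor Ackr3 was thus called higher at 13w. The stage counts of this list above are over all Pecam1-negative cells. At P0 over E16.5, 0 rose and 1 fell of 9 in the remaining cells (6.31% and 12.2% of genes). In Col9a1-high cells 2 rose and 0 fell of 6 (7.72% and 7.83%). At 13w over P0 these counts were 5 and 0 of 8 (13.7% and 12.0%), and 3 and 2 of 7 (9.65% and 15.4%).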

How the data were processed

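The authors deposited filtered matrices of unnormalised UMI counts for each gene in each barcode. Per the file headers they were written by Cell Ranger 6.1.2, and the submitters' processing notes name the build GRCm39; the cells are those of the labels' 10x 3′ protocol. Symbols come from the files. A cell was kept if 500 or more genes were detected and mitochondrial UMIs did not exceed 10%, from 5458, 4853 and 8899 barcodes (103827875, 98486931 and 115836876 UMIs). Scrublet in scanpy 1.11.5 marked at most 0.285% of cells and was taken not to have worked, so no doublets were removed in the main results.

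A cell with UMIs of at least 3 of a class's 6 markers took that class, in the order Pecam1-positive, blood, mural, skeletal muscle, Schwann, then Col9a1-high, then remaining. Counts were summed per library and cell group, without tests, with exact 95% intervals that cover counting error only. They were Clopper-Pearson (binomial) for shares and co-detection, Poisson for CPM and conditional binomial for the ratio of 2 sums. For co-detection the expected count was taken as fixed. For shares, co-detection and correlations each cell was thinned to 3000 UMIs with a fixed seed, which left out 170, 124 and 321 shallower cells at E16.5, P0 and 13w. Where no UMI was seen, 3 UMIs set the limit. TMM factors came from edgeR 4.0.16. The ratio and call steps were tested on simulated counts.

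All members are named, with the 3 genes most correlated with each per library (Pearson r of log counts, genes in at least 2% of cells, members in at least 1%) and up to 2 called genes per direction from each list; other genes were chosen after their values were seen. Levels without the top cell, the chondrocyte sum without Col9a1, Cxcr4 by class and the pairs within blood-marker cells were added after the data had been seen. The members, lists and markers were chosen with earlier results of these data known. Alternatives covered scaling, the minimum level, the Col9a1 and Pecam1 cuts, marker-class and doublet removal, cell filters and thinning.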

Additional observations from a re-analysis of the deposited data

How the results depend on the processing

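No paired analysis was possible because each stage is 1 pooled library with no replicate. The minimum level moved the counts of called members most. With a minimum of 10 CPM they were 1 at P0 over E16.5 and 2 at 13w over P0 in all Pecam1-negative cells, 0 and 1 in Col9a1-high cells, 2 and 3 in the remaining cells, and 5 in the Col9a1 contrast at both P0 and 13w. With no minimum, 4 members were called at P0 over E16.5 in Col9a1-high cells, and with thinned cells 1. The other 109 recounts of called members stayed within 1.5 times of the reported count, or at it. Pairs above expectation numbered 5 at P0 and 5 at 13w when cells were thinned to 1500 UMIs, and 23 at 13w without thinning. Thy1 with Cd34 at P0 turned to 0.765 at 1500 UMIs, from 1.47, and Pdgfrb with Pi16 at 13w to 1.64 without marker-class cells, from 0.338; the cause was not tested. The 10 CPM minimum changed 24 member calls, removing blood, mural, muscle and Schwann marker cells 8, thinning 6, no minimum 5, median-of-ratios factors 4, TMM factors and a Col9a1 cut of 1 3 each, a Col9a1 cut of 10, Pecam1-positive cells included, removal of the highest Scrublet scores or equal weight of the Col9a1 groups 2 each, and a Pecam1 cut of 2 UMIs or a mitochondrial limit of 5% 1 each. Counts of all genes called moved by over 1.5 times only with the minimum level. At P0 over E16.5 in all Pecam1-negative cells they were 1151 with 10 CPM and 4562 with no minimum, against 2661. At 13w over P0 they were 1335 and 5724 against 3157. In Col9a1-high cells they were 759 and 2990 against 1937, then 1465 and 4881 against 3145. With 10 CPM they were 1061 against 2492 and 1505 against 3457 in the remaining cells, and 2029, 2027 and 1138 against 4455, 4150 and 2861 in the Col9a1 contrast at E16.5, P0 and 13w. Depth limits the scarce genes: Dpp4 had 15 to 100 UMIs per stage in Pecam1-negative cells, Ly6a had 16 at E16.5, and pairs among them rest on a few cells.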
